A study of Sus scrofa with 10 samples.

Results

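The genes described here are 10 genes of the body clock and of its chromosomal neighbourhood in pig muscle, taken from a table of 25880 genes. NR1D1, DBP, TEF, NR1D2, PER1, PER2, CIART and BHLHE41 are clock genes. THRA and SPHK2 are not, but THRA overlaps the end of NR1D1 on the opposite strand and SPHK2 ends beside DBP on the opposite strand. The question was whether THRA and SPHK2 varied together with the clock genes from pig to pig and between the breeds. THRA and SPHK2 were chosen by the breed contrast itself, since both stood on the study's list of differing genes, so their breed difference is given as a description with no test. The samples were longissimus lumborum muscle of 5 Alentejano (AL) and 5 Bisaro (BI) pigs, 1 RNA library per pig. All were purebred castrated males kept free-range on a commercial diet offered ad libitum, and the labels give a carcass weight of 150 kg for both breeds. No treatment separates the groups, and the hour of slaughter of each pig is not given in the sources used here.

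The clock of a mammalian cell is a feedback loop of transcription. CLOCK (or NPAS2) and BMAL1 bind E-box motifs and switch on the PER, CRY and NR1D genes, whose proteins in turn hold back CLOCK and BMAL1 or the transcription of BMAL1. DBP and TEF are PAR bZIP factors that carry the rhythm to output genes through D-box motifs, while NR1D1 and NR1D2 (REV-ERB alpha and beta) are nuclear receptors that repress through ROR elements. CIART and BHLHE41 (DEC2) repress CLOCK and BMAL1 activity. THRA codes for thyroid hormone receptor alpha, the main thyroid hormone receptor of skeletal muscle, and SPHK2 for a kinase that makes sphingosine 1-phosphate. Because levels of clock genes swing over the day, a single sampling shows a phase as well as a level.

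The reads counted on genes ran from 2298045 to 3343194 per pig, and 3 reads, taken as the floor, were worth between 2.47 and 3.39 normalised counts. A normalised count is the number of reads on a gene divided by the size factor of its pig. Intervals and floors of this kind cover counting error only. The libraries were stranded, but the strand setting of the counting is not given in the sources used here. Of the 13 protein genes of the mitochondrion, ND6, the one on the minus strand, had a mean normalised count of 52623, against 15.6 to 2556 for the 12 on the plus strand. ND6 held between 77.3% and 90.6% of the counts of these 13 genes in every pig. Of the 20 nuclear protein-coding genes with the highest counts, 19 had a protein-coding gene on the opposite strand within 5 kb, against 48.8% of the 10586 genes with a count and a unique model. Among them were RABEP2 across from ATP2A1 and CTSF across from ACTN3. The muscle gene of these pairs had 4718 and 1394 normalised counts and its partner 337001 and 153260. SPSB2, at 88611, lay across from LRRC23, TPI1 and USP5, of which the highest measured had 223. In a stranded library counted with the opposite setting, reads of a gene are listed under whatever gene lies across from it. For THRA and NR1D1, and for SPHK2 and DBP, the name under which a read was listed therefore depends on that setting. The same holds for every other gene given here, TEF, PER1, CLOCK, the lists and the markers included, and every value is the count listed under the gene's name.

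Both pairs lie tail to tail, so that their last exons face each other. On Sscrofa11.1, THRA (ENSSSCG00000035969) occupies chromosome 12 from 22270506 to 22296684 on the minus strand and NR1D1 (ENSSSCG00000036933) from 22263549 to 22274131 on the plus strand. The genes share 3626 bp, of which 2985 bp are exon in both, making up 45.7% of the exon bases of THRA and 41.1% of those of NR1D1 in RefSeq. No coding base of THRA overlaps one of NR1D1 (0 bp), so the shared exon sequence is noncoding in at least one of them. SPHK2 (ENSSSCG00000030425) occupies chromosome 6 from 53982911 to 53986779 on the plus strand, and DBP (ENSSSCG00000003148) 53986955 to 53993044 on the minus strand. The gene models do not overlap, and 175 bp separate their ends.

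The stretch between them, at chr6:53986780-53986954 (plus strand), is short enough to be shown whole, because any transcript of SPHK2 or DBP that runs past its annotated end passes through it:
SPHK2_DBP: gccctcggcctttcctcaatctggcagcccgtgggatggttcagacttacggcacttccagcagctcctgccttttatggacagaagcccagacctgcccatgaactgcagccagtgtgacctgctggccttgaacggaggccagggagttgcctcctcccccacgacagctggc

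**Figure D1:**
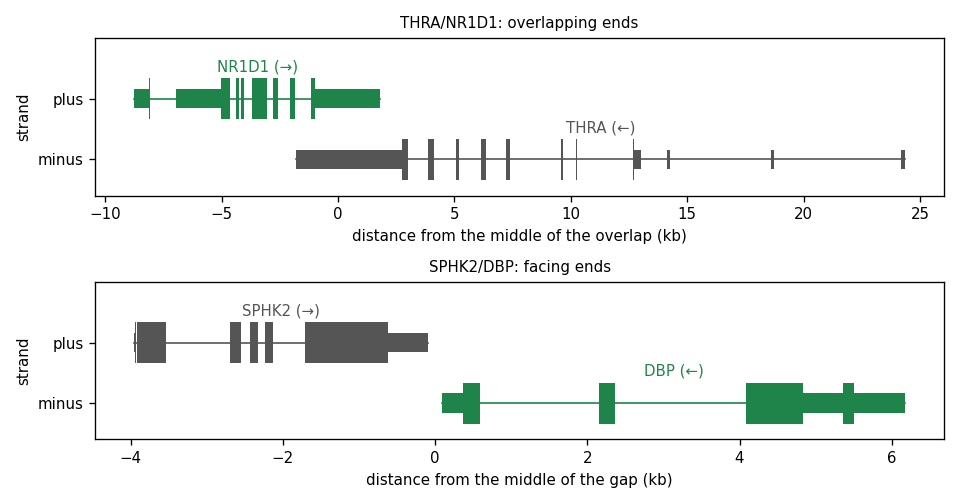
Map of the pairs, with distance in kb from the middle of the THRA and NR1D1 overlap (upper panel) or of the SPHK2 and DBP gap (lower panel), plus strand above and minus strand below. Thin lines are genes, low boxes exons and tall boxes coding sequence, and arrows give the direction of transcription: the last exons of THRA and NR1D1 overlap by 2985 bp, and SPHK2 and DBP end 175 bp apart.

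Promoters were read for the letters that clock factors bind, in the 250 bases before each gene's RefSeq start. The E-box, CACGTG, the site of CLOCK and BMAL1, was found in 2 of the 10 promoters, PER1 among them, and in 6.16% of 20664 promoters of the same length. The D-box forms TTATGTAA and TTACGTAA were each found in 0 of the 10 (0.726% and 0.16% of all promoters), as was the CRE, TGACGTCA (1.63%). The core of the ROR element, AGTAGGTCA, was also found in 0 of the 10 (0.063%). Both strands were searched, the E-box, the second D-box form and the CRE read the same on both, and none of the motifs contains another. A lack of a match says only that these letters are not in this window. The PER1 promoter, one of these 2, is shown as an example, with the E-box in capitals. It lies at chr12:53376724-53376973, on the minus strand:
PER1: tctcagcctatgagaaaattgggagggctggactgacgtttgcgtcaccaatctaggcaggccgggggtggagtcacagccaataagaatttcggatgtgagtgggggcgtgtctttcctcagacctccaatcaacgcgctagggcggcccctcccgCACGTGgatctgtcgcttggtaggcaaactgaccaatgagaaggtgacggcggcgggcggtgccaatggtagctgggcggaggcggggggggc

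The counts listed under THRA and NR1D1 were by far the highest of the 10 genes. Averaged over the 10 pigs and divided by RefSeq exon length, the level was 725 normalised counts per kb for NR1D1, 485 for THRA, 16.3 for TEF, 10.2 for CIART, 7.29 for SPHK2, 3.63 for BHLHE41 and 3.62 for PER1. NR1D2 (0.766), DBP (0.612) and PER2 (0.487) were below 1 normalised count per kb. Neighbours in this order from BHLHE41 to PER1 and from NR1D2 to PER2 overlapped widely between pigs. Of all 25880 genes, 49 had a higher mean count than NR1D1 and 80 a higher one than THRA. For comparison, the muscle markers ACTA1 (skeletal alpha actin) and CKM (muscle creatine kinase) stood below 21 and 60 genes. These levels and ranks are those of counts listed under each name, and which transcripts they hold depends on the strand setting. DBP rested on 18 reads in all, PER2 on 39 and NR1D2 on 42, which leaves these genes with little precision.

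Normalised counts of THRA were 4189 in AL44, 4535 in AL46, 5106 in AL49, 2249 in AL52 and 4801 in AL63, with a mean of 4176 ± 1129 (SD, n = 5). In BI they were 2525 in BI25, 1685 in BI34, 2443 in BI36, 1509 in BI37 and 2698 in BI42, with a mean of 2172 ± 536 (SD, n = 5). Thus 4 of 5 AL pigs were above every BI pig and AL52 lay within the BI range. The log2 fold change, AL minus BI on log2(normalised count + 1), was 0.93 (SE 0.23), or 1.9-fold, and ran from 0.80 to 1.13 with each pig left out in turn.

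NR1D1, on the other strand of the same locus, had nearly the same mean in both breeds. Its normalised counts were 4028, 4163, 5641, 6099 and 6821 in AL44, AL46, AL49, AL52 and AL63, and 4866, 6244, 4579, 5310 and 4908 in BI25, BI34, BI36, BI37 and BI42. The breeds overlapped almost entirely, with means of 5351 ± 1221 in AL and 5181 ± 649 in BI (SD, n = 5 each). The log2 fold change was 0.02 (SE 0.16, limma adjusted p = 0.971), and exact permutation (two-sided, over all ways to divide the pigs into 5 and 5) gave p = 0.905.

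Within the pair, the share of the counts listed under THRA was 51.0% in AL44, 52.1% in AL46, 47.5% in AL49, 26.9% in AL52 and 41.3% in AL63, and between 21.3% and 35.5% in BI. AL52 again fell within the BI range. The sum of both genes ran from 8217 to 11623 normalised counts in AL and from 6820 to 7929 in BI, so that every AL pig was above every BI pig. Of the 3807 genes tested for a breed difference, 1.08% had every AL pig above every BI pig. The sum holds THRA, which the breed contrast chose, so it is a description as well and the share gives it no support.

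SPHK2 had few reads listed under its name, 176 over the 10 pigs. Its normalised counts were 30.2 in AL44, 16.7 in AL46, 37.8 in AL49, 13.3 in AL52 and 28.3 in AL63, against 12.4 in BI25, 9.91 in BI34, 5.17 in BI36, 13.0 in BI37 and 8.45 in BI42. All 5 AL pigs were above all 5 BI pigs, although AL52 exceeded BI37 by less than 1 read. A pattern in which every AL pig exceeded every BI pig was seen for 1.08% of the genes tested here, the 3807 whose 5 values summed to 50 or more in AL or in BI. SPHK2 met this minimum in AL only, and the breed contrast chose it, so the share gives no support to its pattern. Means were 25.3 ± 10.1 in AL and 9.78 ± 3.17 in BI (SD, n = 5 each), a log2 fold change of 1.25 (SE 0.34), which ran from 1.06 to 1.44 with each pig left out.

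Counts listed under DBP, a main output factor of the clock, were at or near the floor in most pigs. With the strand setting not given, they do not show how much DBP transcript the muscle held. No read was counted in AL46, AL63 and BI42, and the other 7 pigs had between 1 and 7 reads, with AL52 highest at 6.23 normalised counts. The means were 1.84 ± 2.58 in AL and 1.59 ± 1.69 in BI (SD, n = 5 each), and the exact permutation test gave p = 1. With 18 reads listed under DBP, no breed difference was detectable, and why so few were listed was not tested. SPHK2 held 68.2% to 100% of the counts of the pair in AL and 69.2% to 100% in BI.

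**Figure D2:**
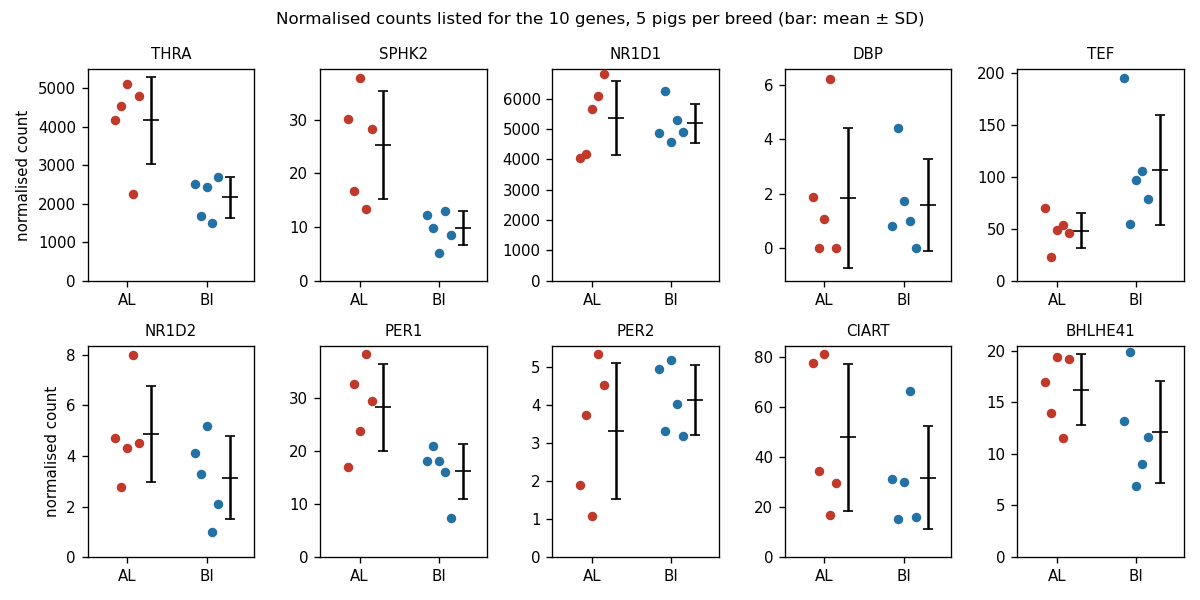
Normalised counts (vertical axes, each panel with its own scale) of the 10 genes in the 5 AL (red) and 5 BI (blue) pigs, 1 point per pig, with the mean and SD as a bar. THRA (4 of 5 AL pigs) and SPHK2 (5 of 5) were above every BI pig, 4 of 5 BI pigs were above every AL pig in TEF, and NR1D1 overlapped.

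Among the clock members, 5 of 8 passed the minimum and entered the breed test, and DBP, NR1D2 and PER2 did not. By limma's adjusted p, 0 of these 5 differed between AL and BI, where 1 of all 3807 genes tested did (0.0263%). At an unadjusted p under 0.05 there were 2 (TEF and PER1), against 9.4% of all genes. DESeq2 on the recovered reads called 0 of the clock members and 1.44% of all genes, and edgeR also called 0 of the clock members. Adjusted p-values over all genes ranged from 0.268 to 0.971 for the 5 clock members. No p was adjusted over these genes alone, and the smallest p that the exact test allows with 5 against 5 is 0.00794.

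TEF, the PAR bZIP output factor, was on average higher in BI. Its normalised counts were 69.9, 23.2, 48.5, 54.3 and 46.4 in AL44, AL46, AL49, AL52 and AL63, and 195 in BI25, 55.1 in BI34, 97.4 in BI36, 106 in BI37 and 79.2 in BI42. BI34 fell inside the AL range and the other 4 BI pigs were above every AL pig, so TEF did not have every BI pig above every AL pig, a pattern that 0.762% of the genes tested had. The means were 48.5 ± 16.8 in AL and 107 ± 53.2 in BI (SD, n = 5 each), a log2 fold change of -1.08 (SE 0.33), 2.11-fold toward BI. It did not pass limma's adjusted threshold (adjusted p = 0.268, 0.0767 to 0.489 over the alternatives), and the exact two-sided permutation p was 0.0159. Without BI25, the highest pig, the log2 fold change was -0.83.

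PER1, a repressor of CLOCK and BMAL1 that also responds quickly to glucocorticoid hormone, lay on the AL side. Normalised counts were 17.0, 32.5, 23.7, 38.2 and 29.4 in AL44, AL46, AL49, AL52 and AL63, and 18.1, 20.9, 18.1, 16 and 7.39 in BI25, BI34, BI36, BI37 and BI42. AL44 lay within the BI range and the other 4 AL pigs were above it. The log2 fold change was 0.79 (SE 0.31, limma adjusted p = 0.439, 0.148 to 0.766 over the alternatives), with an exact permutation p of 0.0317. AL52, the AL pig with the lowest THRA and SPHK2 counts, had the highest PER1 count.

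The other repressors differed less than their spread. CIART normalised counts ran from 16.9 to 80.9 in AL and from 15.4 to 66.1 in BI, with a log2 fold change of 0.55 (SE 0.46, limma adjusted p = 0.759) and an exact permutation p of 0.278. BHLHE41 ran from 11.6 to 19.4 in AL and from 6.90 to 19.8 in BI, with a log2 fold change of 0.45 (SE 0.31, limma adjusted p = 0.703) and an exact permutation p of 0.151. PER2 (1.08 to 5.34 in AL, 3.17 to 5.17 in BI) gave an exact permutation p of 0.357. NR1D2, the second REV-ERB, ranged from 2.79 to 8.01 in AL and from 1.0 to 5.17 in BI, with an exact permutation p of 0.167. Of the 8 clock members, 5 had a higher log2 mean in AL and 3 in BI, and their median log2 fold change was 0.24, beside -0.02 over all genes tested.

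**Figure D3:**
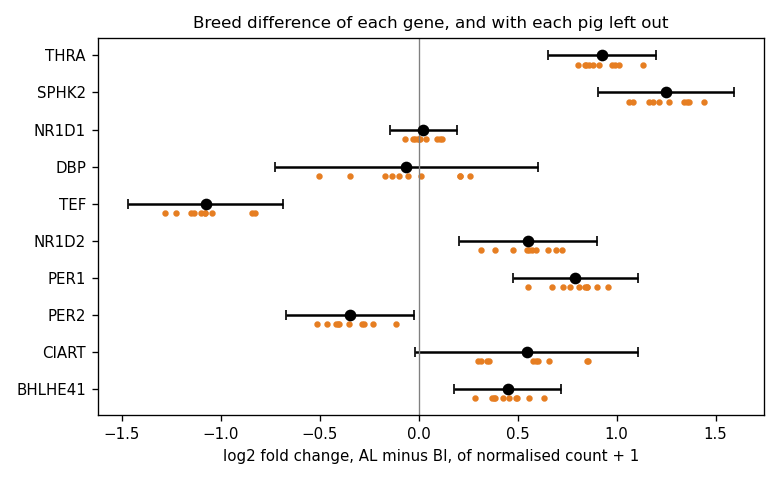
Log2 fold change (horizontal axis, AL minus BI, of normalised count + 1) of each gene, black with its SE from the SDs of the breeds, and in orange the values with each of the 10 pigs left out. THRA, SPHK2, NR1D2, PER1, CIART and BHLHE41 stayed above 0 and TEF and PER2 below 0 in every case, while NR1D1 and DBP crossed it.

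Across from THRA and SPHK2, NR1D1 thus did not pass a breed test and DBP had too few reads to be compared, and the difference between the partners itself was not tested. Whether they varied together from pig to pig was described by Pearson's r and Spearman's rho of the log2 values over the 10 pigs, for all pigs and again after subtracting the mean of each breed. The second form leaves out the contrast by which THRA and SPHK2 were chosen. With 10 pigs such values are imprecise, the points share the scaling of each library, and no p is given.

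THRA and NR1D1 were not positively correlated. Over all pigs r was -0.18 (rho = -0.12), and with breed means removed -0.35 (rho = -0.03). In the plot of NR1D1 against THRA, NR1D1 tended to be lower where THRA was higher in 8 pigs, while AL49 and AL63 were high in both genes. Without AL49 and AL63, the pigs farthest from the median of THRA, r over all pigs was -0.82. That value still holds the breed contrast that chose THRA, and its high-THRA end is AL44 and AL46 alone. With breed means removed, r was -0.17 without its 2 farthest pigs, AL52 and BI37, and ran from -0.60 to -0.16 as each pig was left out.

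Nor were SPHK2 and DBP, with r = -0.18 over all pigs (rho = -0.02) and -0.25 with breed means removed (rho = -0.17). Without AL52 the latter turned to 0.20, and DBP is too sparse for a relation to be read from it. The 2 non-clock genes themselves had r = 0.72 over all pigs (rho = 0.65), which holds the breed contrast that chose them both. With breed means removed r was 0.29 (rho = 0.25), exceeded by 19.2% of genes, and it ran from -0.28 without AL52 to 0.50 without BI37.

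**Figure D4:**
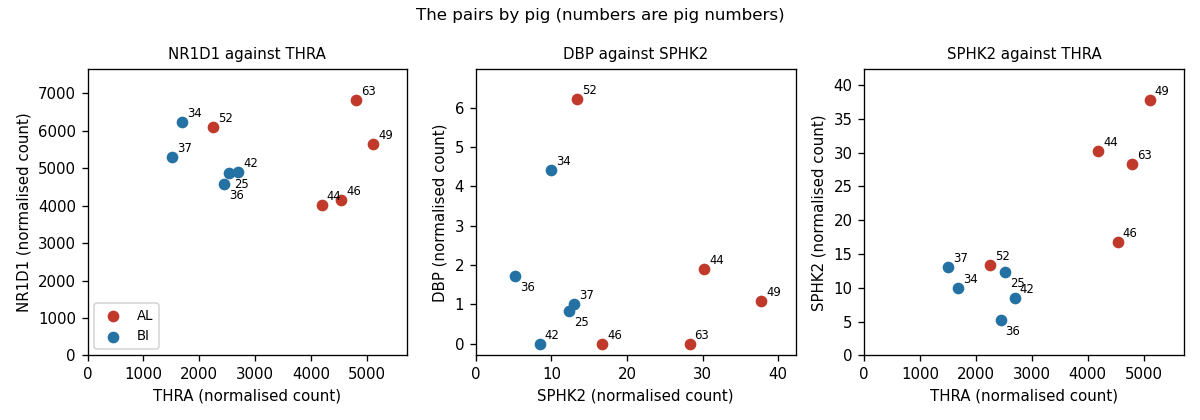
Normalised counts by pig of NR1D1 against THRA, DBP against SPHK2 and SPHK2 against THRA, AL in red and BI in blue, with pig numbers beside the points. AL52 lies beside the BI pigs in THRA (2249) and SPHK2 (13.3), and r over all pigs was -0.18, -0.18 and 0.72.

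Of the 16 pairings of THRA or SPHK2 with a clock member, 7 had a positive and 9 a negative r after breed means were removed, from -0.74 to 0.64. Their median size was 0.35, beside 0.32 for all 7244721 pairs of tested genes and 0.26 for the 28 pairs of clock members. For THRA the values with breed means removed were -0.74 with DBP, -0.49 with PER1, -0.36 with PER2, -0.35 with NR1D1, -0.08 with NR1D2, 0.03 with TEF, 0.22 with BHLHE41 and 0.23 with CIART. The value for DBP rests on 18 reads, and that for CIART turned to -0.33 without AL52.

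For SPHK2 they were -0.64 with PER2, -0.43 with NR1D2, -0.33 with PER1, -0.25 with DBP, 0.14 with NR1D1, 0.34 with TEF, 0.63 with BHLHE41 and 0.64 with CIART. CIART (rho = 0.77, 0.48 to 0.80 with each pig left out) and BHLHE41 (rho = 0.56, 0.45 to 0.81) were the clock members nearest to SPHK2, and 3.07% and 3.34% of tested genes had a higher r with it. Without AL52 and BI36, the pigs farthest from the median, r was 0.68 with CIART and 0.17 with BHLHE41. CIART was high in AL44, AL49 and BI37, the pigs with the highest SPHK2 count in their breed. Sequencing depth moved with some of these genes: after removing breed means, r with the log2 number of reads was -0.57 for SPHK2, -0.41 for CIART, -0.26 for BHLHE41, 0.55 for PER2, 0.70 for NR1D2 and 0.71 for PER1, against -0.14 for THRA and 0.00 for NR1D1. Its part in these correlations was not tested.

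**Figure D5:**
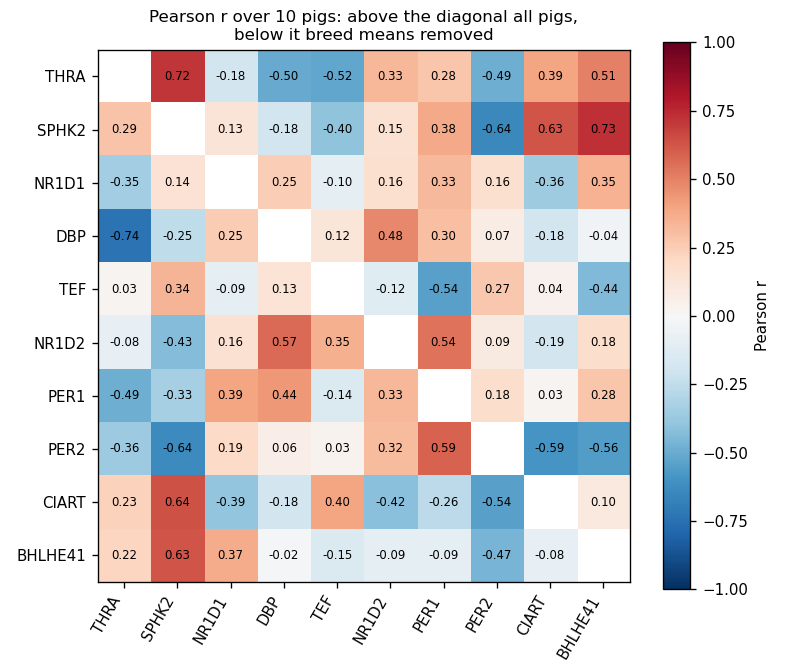
Pearson r of log2(normalised count + 1) between the 10 genes over 10 pigs, all pigs above the diagonal and breed means removed below it, with red for positive and blue for negative values. Signs are mixed among the clock genes as well as between them and THRA or SPHK2, and the range below the diagonal is -0.74 to 0.64.

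Clock genes outside the 10 were taken from a list of 21, of which 18 were measured. Here and below, measured means that the gene's name matched exactly 1 row of the table. Of the 25880 rows 14857 had a name, so a gene called not measured may still be among the rows without one. Of the 18, 6 passed the minimum, 3 higher in AL and 3 lower. CSNK1D, like THRA and SPHK2, stood on the study's list of differing genes, so its breed values are a description. By limma's adjusted p, 0 of the other 5 differed (lowest adjusted p = 0.444). An unadjusted p under 0.05 was found for 1, CLOCK, beside 9.4% of all genes tested. CLOCK met the minimum in BI only and CRY2 in AL only, each the breed where it was higher, which limits what their breed values can show. CSNK1D, a kinase that phosphorylates PER proteins, had normalised counts between 747 and 833 in AL and between 1351 and 1418 in BI, apart from BI37 at 790. Its log2 fold change was -0.65 (SE 0.17). CLOCK had 7.97 ± 3.92 normalised counts in AL and 16.6 ± 6.42 in BI (SD, n = 5 each), a log2 fold change of -0.98 (SE 0.39, limma adjusted p = 0.444) and an exact permutation p of 0.0476. BMAL1, the partner of CLOCK, had 23.9 ± 6.56 and 25.8 ± 2.90 (log2 fold change -0.15, SE 0.25). For NPAS2 the log2 fold change was 0.45 (SE 0.36), for BHLHE40 0.60 (SE 0.34) and for CRY2 0.35 (SE 0.34).

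The relation of THRA and SPHK2 to these 6 genes was tested, with breed means removed and pigs permuted within breeds, as 12 correlations. After Benjamini-Hochberg adjustment over the 12, 0 were below 0.05, by r (lowest adjusted p = 0.208) or by rho (lowest 0.177). At an unadjusted p under 0.05 there were 2. THRA with CLOCK gave r = 0.73 (two-sided permutation p = 0.0173) and rho = 0.75 (permutation p = 0.0267), and THRA with CSNK1D gave r = 0.50 (permutation p = 0.0492) and rho = 0.59 (permutation p = 0.0295). Without AL52 and BI37 these became r = 0.42 and -0.10, so the second rests on those pigs. Over all pigs, where breed means stay in, r was -0.16 and -0.43. For SPHK2 the largest r of these was with NPAS2, 0.54 (permutation p = 0.151).

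Within 5 kb on the opposite strand, 16 of 29 clock and member genes with a model had another gene, and 10 of 19 such pairings, each member pair counted from both sides, were measured on both strands. Levels per kb of exon differed widely across these pairs. The gene across from the clock gene was the higher one for CLOCK (1.80 normalised counts per kb) and TMEM165 (45.7), whose exons overlap by 3027 bp, for GSK3B (0.621) and NR1I2 (49.7), and for CRY1 (0.0730) and TMEM263 (6.26). The clock gene was higher for CSNK1D (199.7) and SLC16A3 (4.18) and for BMAL1 (7.56) and BTBD10 (0.579). NR1I2 codes for a xenobiotic receptor known from liver and gut.

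With breed means removed, r was 0.48 for CLOCK and TMEM165, 0.73 for GSK3B and NR1I2, 0.32 for CRY1 and TMEM263, 0.47 for CSNK1D and SLC16A3 and 0.37 for BMAL1 and BTBD10. These 5 were positive, where THRA with NR1D1 (-0.35) and SPHK2 with DBP (-0.25) were negative, though GSK3B had 82 reads in all, BTBD10 29 and CRY1 13. The negative values were not firm: rho was -0.03 for THRA with NR1D1, and r of SPHK2 with DBP was 0.20 without AL52. Whether the pairs differ in sign was not tested. SLC16A3, the lactate exporter MCT4, stood 2386 bp from CSNK1D. Its normalised counts were 9.30 to 18.1 in AL and 17.0 to 29.7 in BI, a log2 fold change of -0.78 (SE 0.27, limma adjusted p = 0.351, exact permutation p = 0.0159), in the same direction as CSNK1D. By limma, 9.4% of all genes tested had an unadjusted p under 0.05. CSNK1D was on the study's list of differing genes and its r with SLC16A3 over all pigs was 0.81, so the shared direction is a description.

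Genes that work with THRA, SPHK2 and the clock were followed in lists. Of 14 thyroid hormone genes (receptors, cofactors, deiodinases and transporters), 6 were tested and 4 were higher and 2 lower in AL, with 0 called by limma's adjusted p and 0 at an unadjusted p under 0.05. Their median log2 fold change was 0.16, beside -0.02 over all genes tested. The corepressor NCOR1, the highest by count, had a log2 fold change of -0.20 (SE 0.19), and THRB, the other receptor, had 20 reads in all. Of 19 sphingosine pathway genes, 18 were measured and 5 tested, 2 higher and 3 lower in AL, with a median of -0.10. Of the 5, 0 were called and 1 (SGPP1) had an unadjusted p under 0.05, beside 9.4% of all genes tested. SPHK1, which makes the same product as SPHK2, had 782 ± 142 normalised counts in AL and 686 ± 227 in BI (SD, n = 5 each), a log2 fold change of 0.23 (SE 0.20). The ceramide synthase CERS1 had a log2 fold change of -0.10 (SE 0.12).

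Glucocorticoid-responsive genes were included because this hormone also drives PER1. Of 13, 10 were measured and 7 tested, 4 higher and 3 lower in AL, 0 called and 0 at an unadjusted p under 0.05, with a median of 0.14. CEBPD (0.25, SE 0.32) and KLF9 (-0.08, SE 0.28) were the highest of them by count. DDIT4 and ERRFI1 met the minimum in AL only, the breed where each was higher, which limits what the split and the median can show. Of 12 clock output genes of muscle, 6 were tested, 2 higher and 4 lower in AL, with a median of -0.21. In this list 0 were called and 2 (TCAP and UCP3) had an unadjusted p under 0.05, beside 9.4% of all genes tested. UCP3 met the minimum in AL only, the breed where it was higher. TCAP, the titin cap protein, had a log2 fold change of -0.73 (SE 0.24, limma adjusted p = 0.329), and TFRC, the transferrin receptor, one of -0.21 (SE 0.23).

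The genes whose pattern was most like THRA, by r with breed means removed among the 1512 genes that averaged 50 or more in AL as well as in BI, were RUVBL1 (0.90), PRADC1 (0.89), RRP7A (0.86), EME1 (0.83) and TNNC1 (0.81), the slow troponin C. Over all pigs r with THRA was 0.94, 0.36, 0.35, 0.45 and 0.91 in the same order, values that hold the breed contrast that chose THRA. For SPHK2 they were KLF9 (0.91), LIN37 (0.89), ZNF335 (0.86), RAB11FIP5 (0.80) and FEZ2 (0.80), among 1513 genes. Their r with SPHK2 over all pigs, which holds the same contrast, was 0.48, 0.93, 0.22, 0.73 and 0.93. None of these 10 was a core clock gene of the list. Of that list only CSNK1D averaged 50 or more in both breeds, so the search could hardly have found one.

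Markers of muscle were present at high counts in all pigs. Of 7, 4 were measured and tested, all 4 lower in AL (median log2 fold change -0.32). Among them 0 were called and 1 had an unadjusted p under 0.05 (TNNT3, fast troponin T, log2 fold change -0.47), beside 9.4% of all genes tested. The summed normalised count of the 4 was 16209 to 31793 in AL and 28393 to 44480 in BI. The sum of 7 adipocyte markers was 76.5 to 156 in AL and 68.7 to 180 in BI, mostly PLIN4 (mean 89.6), with ADIPOQ at 0.283. Immune markers (5) summed to 253 to 389 and 250 to 397, of which CSF1R made up a mean of 276, with PTPRC at 0.316 and CD3E listed at 0. Fibroblast markers (5) summed to 14.2 to 103 in AL and 16.5 to 43.3 in BI, endothelial markers (4 measured) to 3.24 to 16.7 and 2.20 to 9.88, and red blood cell markers (3 measured) to 2.26 to 10.2 and 7.39 to 16.5. The part of these differences in the clock gene values was not tested, and in whole muscle fewer cells of a type and less RNA per cell cannot be told apart.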

How the data were processed

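RNA from longissimus lumborum of 5 AL and 5 BI pigs was sequenced with 1 stranded library per pig. The authors used Trim Galore 0.5.0 for trimming, HISAT2 2.1.0 for alignment to Sscrofa11.1, SAMtools 1.9 and HTSeq 0.11.1 for read counts per gene (tools as in the submitters' processing notes). The deposited signal values are these counts after DESeq2 scaling, with 1 size factor per pig. The file also holds the authors' own DESeq2 comparison (fold changes, errors and p-values), which was not used. All values were whole multiples of what 1 read is worth in that pig (tolerance 0.01 reads), so reads were recovered. The strand setting of the counting is not given in the sources used here.

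Breeds came from the labels. Limma 3.58.1 (R 4.3.3, trend) was fitted to log2(value + 1) over 3807 genes whose values summed to 50 or more in AL or BI, with Benjamini-Hochberg adjustment and a threshold of 0.05. Single genes were tested by exact two-sided permutation over all divisions of the pigs into 5 and 5, and correlations with core clock genes (sum of at least 100 over the pigs) by 100000 permutations within breeds. The alternatives were pseudocounts of 0.1 and 10, other minimums or none, another scaling, DESeq2 1.42.0 and edgeR 4.0.16 with TMM on the recovered reads, and each pig left out. The functions were tested on simulated data. Pigs were separate animals, and no pair of libraries within a breed agreed within sampling noise. Gene models and sequences are from RefSeq annotation release 106 of the same build, whereas counting used Ensembl models, so exon lengths are approximate. Other steps ran in Python 3.11.15 with scipy 1.17.1, numpy 2.4.6, matplotlib 3.10.9 and pandas 2.3.3.

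The genes named are the 10 members, the core clock list, measured opposite-strand neighbours within 5 kb, the 5 genes most like THRA and SPHK2 by r, and list genes called or else the 2 highest. ND6 and the highest genes of the table, with the genes across from them, as well as list genes named at an unadjusted p, THRB, and the markers with a level, were named after their values were seen. The same holds for DDIT4 and ERRFI1. The members and lists were chosen with earlier results of these data known. Some genes and sequences that this rule names are not reported here.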

Additional observations from a re-analysis of the deposited data

Results flagged for a closer look

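Single pigs standing apart within a breed were searched for in 16 genes, the 10 members and 6 core clock genes (32 groups of 5 pigs), where chance alone is expected to mark about 1 group in 20. The highest or lowest pig was noted when its gap to the nearest pig exceeded 0.71 of the range (Dixon), which gave 2 pigs, neither in one of the 10 genes. NPAS2, the paralog of CLOCK, had a normalised count of 64.2 in AL44, where the other AL pigs lay between 14.2 and 24.8 (ratio 0.788). CSNK1D, the PER kinase, had a normalised count of 789.7 in BI37, where the other BI pigs lay between 1351 and 1418 (ratio 0.894), so that BI37 was inside the AL range of 747 to 833.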

How the results depend on the processing

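The number of genes called between AL and BI was 1 of 3807, and it was 2 with a pseudocount of 10, 40 with no minimum, 0 when a mean of 50 in AL and in BI was required and 55 by DESeq2 on the recovered reads. With each pig left out it ran from 1 to 40: 40 without AL44, 4 without AL52, 3 without BI36 and 4 without BI37. The number of clock members called was 0 under each of these alternatives. Log2 fold changes of the 5 clock members tested kept their direction and stayed above the threshold in 87 of 91 alternatives. The 4 exceptions were of NR1D1, whose main value was 0.02 and whose values with a pig left out ran from -0.072 to 0.12: it was -0.00323 without AL49, -0.03 without AL52, -0.072 without AL63 and -0.02 without BI36. DBP, which was not tested, also changed sign, from -0.50 to 0.26 with a pig left out. Leaving out a pig turned the sign of 12 of 340 correlations of THRA or SPHK2, 10 of 34 relations in all. Without AL52, r with breed means removed turned from 0.29 to -0.28 for THRA with SPHK2, from 0.23 to -0.33 for THRA with CIART and from -0.08 to 0.51 for THRA with NR1D2. Of the 136 other alternatives 1 turned the sign, and r of SPHK2 with TEF over all pigs (-0.40) became a rho of -0.60. No paired analysis was possible because AL and BI pigs share no replicate numbers. Low read numbers limit DBP, PER2 and NR1D2, and the strand setting bears on the name of every count in the table.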
